A study of Caenorhabditis elegans with 25 samples.

Results

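The transcripts described here were nearly confined to germlines that make oocytes. They were chosen from the deposited table of mean RPKM (read counts scaled for transcript length and for the library's total): a gene was taken if its oogenic value was over 15 RPKM and both its him-8 male and its N2 male values were under 1 RPKM, with the 6 vitellogenin (vit) yolk genes left out. Of 45461 identifiers, 82 met the rule. Their absence from control male germlines is therefore how they were chosen and is no finding. The deposited oogenic value was the mean of N2 oogenic libraries 1 and 2 and fem-2 oogenic library 3, so the remaining oogenic libraries and all mes-3, sperm and offspring libraries were independent of the choice.

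In C. elegans hermaphrodites the adult germline makes oocytes, and many transcripts made there are loaded into the egg and used by the early embryo. Male germlines make sperm from the same kind of stem cells. In both, the X chromosome is kept mostly silent, and in oogenic germlines some X-linked genes become active late in meiosis. MES-3 acts with MES-2 and MES-6 in the complex that places H3K27me3, a repressive histone mark, and sperm carry this mark on their chromosomes to the embryo.

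Ribosomal RNA-depleted RNA was sequenced from 25 libraries of day 1 adults in 9 groups. Sperm came from mes-3(bn35) males (3 libraries) and him-8(e1489) males (3), cut open to release it. Male germlines came from mes-3(bn35) (3), him-8(e1489) (4) and N2 wild-type males (2), and mes-3 males were homozygous sons of heterozygous parents, so they had maternal but no zygotic gene product. Mutants in him-8 produce many males. Offspring germlines were all mes-3/mes-3; fem-2(b245ts)/fem-2(b245ts) from heterozygous mothers, and their fathers were either mes-3 homozygotes (M+P-, 2 libraries) or mes-3/hT2-GFP heterozygotes (M+P+, 2), all of them carrying fem-2 as well. P stands for the paternal supply of MES-3 and its mark. Oogenic germlines came from fem-2(b245ts) worms (3), which make no sperm after a shift of temperature, and from N2 hermaphrodites (3). Worms were grown at 20 °C, offspring at 15 °C, and fem-2 worms at 15 °C with a shift to 20 °C for 24 hours. Germlines were pools of distal gonad arms cut at the bend where late pachytene ends, so that fewer cells of a type and less RNA per cell cannot be told apart in any comparison below.

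Depth, as total gene counts, ran from 1561329 to 3084442 over the 6 sperm libraries, from 1849544 to 9991288 over the 9 male germline libraries, from 5462176 to 6750907 over the 4 offspring libraries and from 1078195 to 18617543 over the 6 oogenic libraries. Sperm preparations held somatic RNA: 9 muscle genes together reached 2532 to 4646 CPM (counts scaled for the library's total only) in the mes-3 and 2237 to 5088 CPM in the him-8 preparations, against 52.8 to 115 CPM in mes-3 male germlines. The muscle regulator hlh-1, also on this list, had no count in any of the 25 libraries, so its zero says nothing about muscle RNA here. One library, him-8 male replicate 2, stood apart from its group with 2952 CPM of the same muscle genes, against 212 to 261 CPM in the other him-8 male libraries, and it took part in the choice of genes.

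The 82 genes were unevenly spread over the chromosomes. Of them, 29 (35.4%) lay on the X chromosome, 23 on V, 18 on II, 7 on IV, 3 on III and 2 on I. Among all 4895 placed genes over 15 RPKM in the deposited oogenic column, 82 (1.68%) were X-linked, and 29 of these were among the genes described here. The annotation calls 79 of the 82 protein-coding, and 51 carry only a sequence name. Within 10 kb of each other lay 25 of the genes, in 11 groups, among them F02H6.2, F02H6.3 and F02H6.4 on IV, F14H3.4, F14H3.5 and F14H3.6 on V, and the X-linked pairs spat-3 with pqn-65, meg-1 with ekl-5 and meg-3 with F52D2.6. Exons of another annotated gene overlapped 18 of them, 5 on the same strand and 14 on the other. Whether reads were counted by strand is not given in the sources used here, so values of such genes, including mrp-4, cht-3, cdc-25.3 and R09F10.8, are uncertain. Y46H3C.5 and Y46H3C.7 overlap each other. Reads of the core histone genes his-20, his-39 and his-52 can be split among near-identical copies.

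Genes that stood at the top of the list in the deposited oogenic column were C39D10.7 at 148 RPKM, mrp-4 at 134 RPKM, F14H3.6 at 124 RPKM, ZC308.4 at 94.5 RPKM and R04D3.3 at 85.2 RPKM. They were followed by meg-1 at 75.1 RPKM, skpo-1 at 74.9 RPKM, cht-3 at 68.5 RPKM, R09F10.8 at 67.5 RPKM and his-52 at 60.5 RPKM. mrp-4 encodes an ABC transporter of the multidrug resistance protein family, skpo-1 a peroxidase and cht-3 a chitinase. meg-1, with meg-3 and meg-4, encodes disordered proteins of the germ granules of the early embryo. Just inside the oogenic threshold were ent-2 at 15.2 RPKM, F52D2.6 at 15.3 RPKM and T04D3.1 at 15.5 RPKM, and just outside it metl-9 at 14.9 RPKM, F54D11.3 at 14.6 RPKM and F16B12.6 at 14.6 RPKM. For the male threshold, by the higher of the 2 male values, ZC308.4 at 0.988 RPKM, his-52 at 0.944 RPKM and his-20 at 0.908 RPKM were just inside, and T04G9.7, C06H2.7 and acl-4 at 1.12, 1.12 and 1.13 RPKM were just outside.

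In the control male libraries that chose them, the 82 genes together made up 15.9 to 50.8 CPM per him-8 library and 29.2 to 46.7 CPM per N2 library. In the same libraries 9 genes had no count in any him-8 male and 37 none in any N2 male, where 3 counts are worth 0.596 to 1.62 CPM (him-8) and 1.18 to 1.23 CPM (N2). In the 3 oogenic libraries not used in the choice (fem-2 replicates 1 and 2, N2 replicate 3), 70 of the 82 genes had a mean over 15 RPKM and 12 did not. The median over the genes was 21.4 RPKM, the highest was mrp-4 at 158 ± 3.56 RPKM (SD, n = 3), and the lowest was Y9D1A.1 at 2.96 ± 1.79 RPKM. Levels of mrp-4 were 154 and 160 RPKM in fem-2 replicates 1 and 2 and 160 RPKM in N2 replicate 3. C39D10.7 had 124, 130 and 111 RPKM in the same order, and meg-3 30.1, 30.6 and 29.9 RPKM. These 3 genes stood at like levels in both strains, in libraries that had no part in choosing them, but they do not stand for the whole set. In the same order, F43G6.7 had 23.2, 22.7 and 9.68 RPKM and Y46H3C.7 had 11.8, 14.3 and 4.16 RPKM, lower in the N2 library. F02E8.4 had 35.5, 39.6 and 48.7 RPKM, higher in the N2 library. The difference between the strains was not tested.

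**Figure D1:**
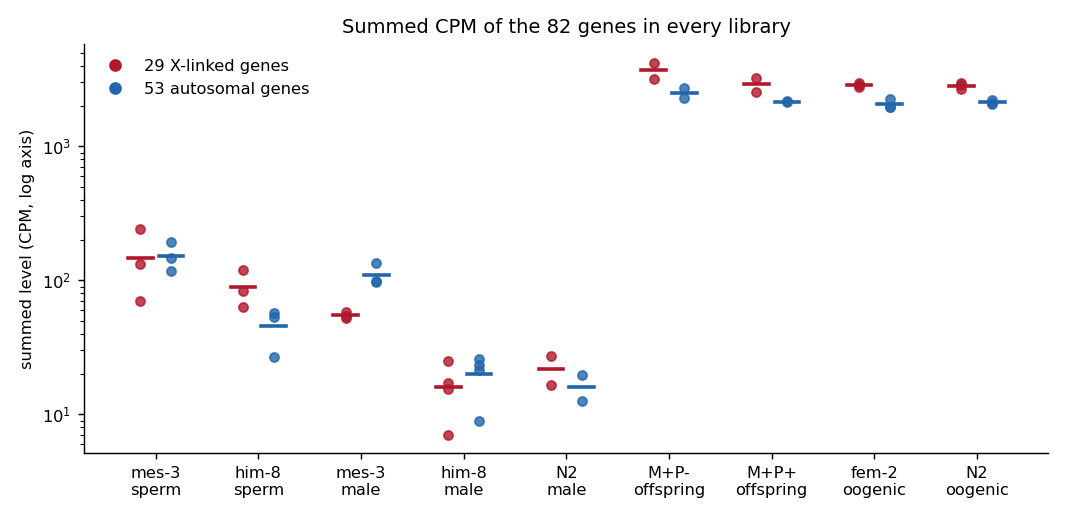
Summed level of the 29 X-linked and the 53 autosomal genes (CPM, log axis) in each of the 25 libraries by group. Points are libraries and bars are group means. Offspring and oogenic libraries lie far above all sperm and male libraries. All mes-3 sperm, him-8 sperm and mes-3 male libraries lie above the him-8 and N2 male libraries for both sets. The him-8 and N2 male libraries chose the genes, so their place at the bottom was favoured in advance. For the autosomal genes the margin is small, with him-8 sperm replicate 2 at 26.9 CPM and him-8 male replicate 2 at 25.95 CPM.

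To describe these transcripts in mes-3 male germlines, such germlines were set beside the oogenic libraries that the rule did not use. The 82 genes summed to 150, 193 and 154 CPM in mes-3 males, against 4730 and 4851 CPM in fem-2 oogenic replicates 1 and 2 and 4960 CPM in N2 oogenic replicate 3. Of 81 genes that passed the count filter, all 81 were lower in mes-3 males by edgeR's quasi-likelihood test at a Benjamini-Hochberg adjusted p under 0.05, in a comparison in which 31.9% of all genes tested were lower and 38.2% higher (70.1% in all; DESeq2 called 70.4%, and the same number of 81). The gene that did not pass the filter was Y46H3C.5, with no count in any mes-3 male library. The choice had taken genes high in oogenic and near absent in control male germlines. The filter could be passed through the oogenic libraries alone. Calls of lower for nearly all of these genes were thus favoured in advance, and nothing about H3K27me3 is read from the calls. The median log2 fold change of the 81 was -6.20, against 0.028 over all 10135 genes tested. That median was -5.67 when 14 genes without a count in mes-3 males were placed at the bound set by their floor. Tags in the deposited library names differed between these groups, so the tag and the group cannot be told apart. What these tags mark is not stated.

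In mes-3 males 15 of the genes had no count in any library. At a floor of 3 counts in the shallowest library, 0.400 CPM, their levels were at least 7.08-fold lower (Y51H7C.15) to at least 210-fold lower (meg-3) than the mean of the oogenic libraries. The nucleoside transporter gene ent-5 was at least 86.5-fold lower, K04C1.5 at least 141-fold, T06D4.1 at least 151-fold and T10C6.7 at least 80.7-fold. The other genes at the floor included C50E3.11 (at least 71.2-fold), C50E3.12 (56.4-fold), F02H6.2 (63.5-fold), F02H6.3 (56.4-fold) and R05G9.3 (50.8-fold). In all, 31 genes had 3 counts or fewer in every mes-3 male library.

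At the other end, 24 of the 82 genes had a mean of at least 1 RPKM in mes-3 males, and 8 of them reached 1 RPKM in every library. The 5 highest were fbxc-50 at 18.1 ± 4.15 RPKM, alg-2 at 8.57 ± 0.867 RPKM, F54D5.5 at 7.49 ± 1.78 RPKM, M151.7 at 5.03 ± 3.22 RPKM and his-52 at 4.47 ± 0.976 RPKM (SD, n = 3 each). fbxc-50 encodes an F-box protein, a kind of protein that picks targets for ubiquitin ligases. alg-2 encodes an Argonaute protein that works with microRNAs. fbxc-50 had 14.9, 23.7 and 21.4 CPM in mes-3 males, against 1.23, 0.541, 1.59 and 0.214 CPM in him-8 males and 1.18 and 0.820 CPM in N2 males. alg-2 had 25.03, 30.7 and 27.8 CPM in mes-3 males, against 0.613, 7.03, 1.99 and 1.497 CPM in him-8 males and 4.33 and 1.23 CPM in N2 males. For both genes every mes-3 library was above every control male library.

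F54D5.5 had 8.64, 13.3 and 13.7 CPM in mes-3 males, against 0 to 0.855 CPM in him-8 males and 0 and 0.410 CPM in N2 males. M151.7 had 12.3, 4.40 and 4.504 CPM in mes-3 males, against 0 to 0.795 CPM in him-8 and 0.788 and 0.410 CPM in N2 males. spat-3, which encodes a RING-finger protein related to the Polycomb ubiquitin ligase, had 26.9, 4.13 and 26.7 CPM in mes-3 males, and the second of these lay within the range of 1.07 to 4.87 CPM of the him-8 males. Over the genes that reached 10 counts throughout at least 1 of these groups, mes-3 males lay above all him-8 males without overlap for 10 of 14 of the oogenic genes and for 33.6% of 8743 genes in all. All 14 met that count only in mes-3 males, so the filter itself favoured genes high there, and the shares cannot be compared. Since him-8 males chose the genes, no test was made of this contrast and nothing is read from it.

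Even these genes stayed below their oogenic level. The log2 fold change of mes-3 male over oogenic germlines was -1.27 ± 0.20 (SE) for fbxc-50 (adjusted p = 0.000136, edgeR), -1.34 ± 0.26 for F54D5.5 (adjusted p = 0.000574), -1.52 ± 0.16 for alg-2 (adjusted p = 2.99e-06) and -1.57 ± 0.39 for M151.7 (adjusted p = 0.00336). Markers of other cells differed in direction in the same libraries. The 7 intestine genes found of a list of 8 summed to 6.63 to 28.5 CPM in mes-3 males, against 24.5 to 523 CPM in him-8 males, and the intestine regulator elt-2 did not exceed 0.500 CPM in any mes-3 male library. Neuron genes summed to 21.9 to 28.4 CPM in mes-3 males, against 4.60 to 16.2 CPM in him-8 males. The spermatheca list was almost wholly fln-1, at 2349 to 2934 CPM in mes-3 males, against 334 to 1337 CPM in him-8 males. In N2 oogenic germlines fln-1 had a mean of 1440 CPM. The spermatheca gene fkh-6 had a mean of 0.559 CPM in mes-3 and 0.436 CPM in him-8 males, and sth-1 was at 0 in mes-3 males. Gonadal sheath genes summed to 141 to 167 CPM in mes-3 males, against 68.9 to 94.5 CPM in him-8 replicates 1, 3 and 4 and 177 CPM in replicate 2. Against oogenic germlines, 3 of 4 neuron genes, 3 of 4 sheath genes and fln-1, the 1 spermatheca gene tested, were higher in mes-3 males, and 1 sheath gene was lower. The part of these cells in the levels of the oogenic genes was not tested.

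Replicate 2 of the mes-3 males differed from the other 2 for some oogenic genes. It had the highest value of the 3 for 35 of the 67 genes with a count in the group. C39D10.7 had 22.1 CPM in it and 0.376 and 0.300 CPM in replicates 1 and 3, and meg-1 had 4.53 CPM in it and 0 and 0.100 CPM in the others. Without this library all 82 genes tested were still lower than in oogenic germlines.

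Other oogenic genes gave the same direction in mes-3 males. Of a list of 14 eggshell and egg activation genes 13 were lower and none higher, and of 14 maternal RNA regulators all 14 were lower, with median log2 fold changes of -3.16 and -3.19. The yolk receptor gene rme-2 and the polarity gene par-6 were lower as well (log2 fold change -3.62 and -0.98). The 82 genes had a larger median difference than these lists, which no rule had kept out of control males.

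In sperm, RNA of the oogenic genes was scarce in both genotypes. They summed to 433, 280 and 188 CPM in mes-3 sperm, against 172, 110 and 121 CPM in him-8 sperm, and the 2 groups did not overlap. Of the first mes-3 sum, mrp-4 alone held 73.8 CPM. With scaling by total counts, as in these sums, all genes tested had a median log2 fold change of 0.33 in mes-3 over him-8 sperm. Mean levels reached 1 RPKM for 35 genes in mes-3 sperm and for 19 in him-8 sperm, and none reached 15 RPKM. No count was seen in any library of the group for 19 genes in mes-3 sperm and 25 in him-8 sperm, and 37 and 56 genes had 3 counts or fewer in every library. A count of 3 equals 1.21 to 1.92 CPM in mes-3 and 0.973 to 1.53 CPM in him-8 preparations, so that at this depth most of the genes were at or under the floor in every him-8 sperm library, and 37 of the 82 in every mes-3 sperm library.

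Only 11 of the 82 genes passed the count filter in sperm, and 1 of them, fbxc-50, differed between mes-3 and him-8 sperm by edgeR, where 10.3% of 8424 genes differed (3.22% higher and 7.05% lower). Scaling by total counts turned the split of all genes from 271 higher and 594 lower into 463 higher and 270 lower, and it kept fbxc-50 higher. fbxc-50 had 13.2, 10.9 and 11.7 CPM in mes-3 sperm, against 0, 0 and 0.973 CPM in him-8 sperm. It passed the filter through the mes-3 libraries alone, so a call of higher was favoured in advance. In all 71 counts in mes-3 sperm stood against 3 counts in him-8 sperm, a ratio of 27.9 with a 95% exact interval of 9.18 to 139 that covers counting error only. Its log2 fold change was 4.56 ± 1.29 (SE) with an adjusted p of 0.0397 in edgeR, while DESeq2's filter on low means gave no adjusted p. The call was lost without 5 of the 6 libraries in turn, namely mes-3 replicates 1, 2 and 3 and him-8 replicates 1 and 2, and it stayed without him-8 replicate 3.

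Of the 11 genes 3 lay above him-8 sperm without overlap (fbxc-50, alg-2 and flh-3) and none below, beside 22.9% and 9.45% of all genes. Like fbxc-50, flh-3 passed the filter through the mes-3 libraries alone, so its place above was favoured in advance. alg-2 and mrp-4 passed in DESeq2, which called 13.2% of all genes, and not in edgeR. alg-2 had 25.3, 50.0 and 31.7 CPM in mes-3 sperm, against 10.2, 5.59 and 13.3 CPM in him-8 sperm, with no overlap. Its log2 fold change was 1.61 ± 0.53, with an adjusted p of 0.0739 in edgeR and 0.0328 in DESeq2. mrp-4 had 73.8, 12.2 and 5.22 CPM in mes-3 sperm, against 4.58, 0.508 and 5.51 CPM in him-8 sperm, and 1 mes-3 library lay within the him-8 range. Its adjusted p was 0.0914 in edgeR and 0.0206 in DESeq2. Within mes-3 sperm, then, mrp-4 varied over a wider range than alg-2 or fbxc-50.

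By mean CPM, the oogenic genes with most reads in him-8 sperm were pqn-65, spat-3, F52D2.6, alg-2 and cam-1. By RPKM, which allows for length, srdf-2.1 (6.23 RPKM) and eat-17 (4.66 RPKM) stood above pqn-65 (3.75 RPKM); both were named after their values were seen. pqn-65, which encodes a protein rich in glutamine and asparagine, had 46.4, 23.1 and 19.7 CPM in mes-3 sperm, against 35.1, 19.3 and 21.7 CPM in him-8 sperm. spat-3 had 41.1, 37.8 and 12.1 CPM in mes-3 sperm, against 25.4, 18.8 and 9.08 CPM in him-8 sperm. Both overlapped between genotypes, and their log2 fold changes were -0.056 ± 0.48 and 0.46 ± 0.59. F52D2.6 had 11.1, 1.92 and 10.4 CPM in mes-3 sperm, against 14.8, 17.3 and 0 CPM in him-8 sperm, and cam-1, the gene of a Ror-type receptor tyrosine kinase, had 5.27, 8.97 and 13.3 CPM, against 8.65, 1.02 and 11.996 CPM in him-8 sperm. Neither differed beyond the spread between libraries.

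Some markers of other cells differed with genotype in sperm, and most lists of them held no call. Intestine genes summed to 876 to 986 CPM in mes-3 sperm, against a him-8 range of 268 to 804 CPM, and 1 of 7 tested, cpr-1, was higher by edgeR (0 by DESeq2). The spermatheca gene fln-1, at 713 to 950.2 CPM in mes-3 sperm against 239.9 to 377 CPM in the him-8 libraries, and the gonadal sheath gene inx-8, at 40.99 to 74.7 CPM against 9.14 to 10.68 CPM in the him-8 libraries, were higher by both tools. Of 7 sperm genes tested 6 were lower in mes-3 sperm, and their sum was 4475 to 5637 CPM, against a him-8 range of 8351 to 9824 CPM. Of 4 gonadal sheath genes tested only inx-8 differed, and fln-1 was the 1 spermatheca gene tested. Of 8 muscle, 6 yolk, 4 neuron and 2 hypodermis genes tested none differed by edgeR or DESeq2. The part of these differences in the values of the oogenic genes was not tested. The intestine regulator elt-2 stood at 8.44 to 19.9 CPM in mes-3 sperm, against a him-8 range of 1.53 to 3.57 CPM.

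**Figure D2:**
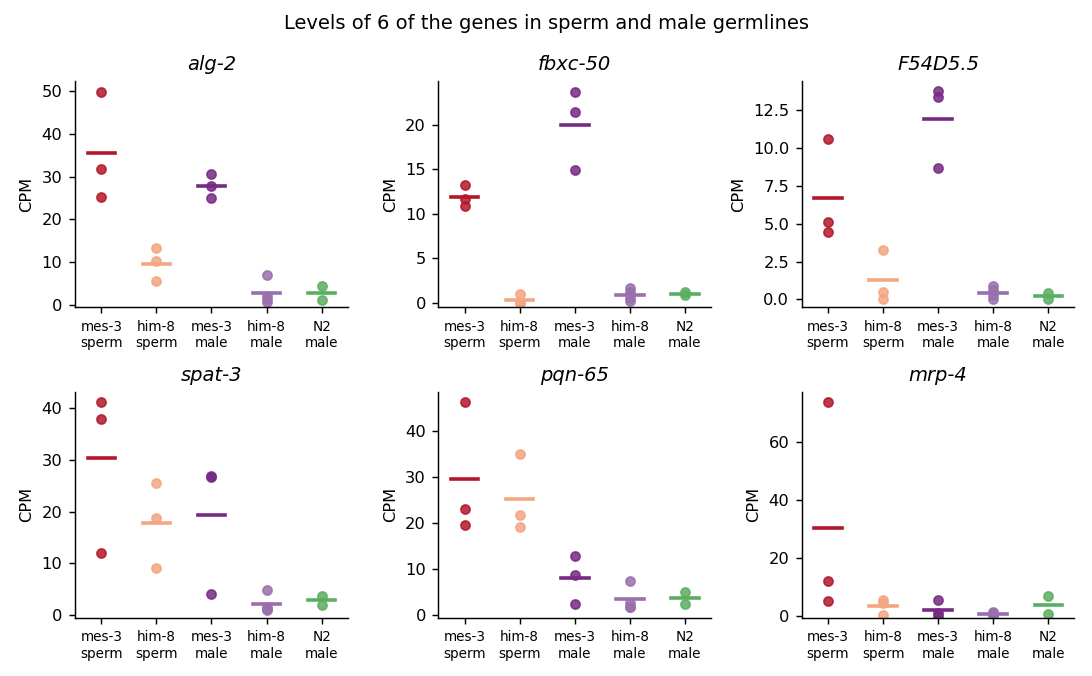
Level (CPM) of 6 of the genes in each library of mes-3 sperm, him-8 sperm, mes-3 male, him-8 male and N2 male germlines. Points are libraries and bars are group means. alg-2 and fbxc-50 were above every him-8 and N2 library in both mes-3 groups, while spat-3 and pqn-65 were as high in him-8 sperm as in some mes-3 sperm, and 1 mes-3 sperm library set the mean of mrp-4.

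Sperm was next set against male germlines within the mes-3 genotype and 1 library-name tag. Of 26 genes that passed the filter, 5 were higher in mes-3 sperm than in mes-3 male germlines and none was lower, where 29.4% of 10018 genes differed (1900 higher and 1041 lower, or 1647 and 1876 with scaling by total counts; DESeq2 called 32.1%). These were mrp-4, F52D2.6, flh-3, cam-1 and pqn-65, all of them called by DESeq2 too. Of these, mrp-4, F52D2.6 and pqn-65 are X-linked, and the X chromosome as a whole was higher in mes-3 sperm, with a median log2 fold change of 4.12 over all X-linked genes tested and -0.12 over all autosomal genes. X-linked members had a median of 0.82. pqn-65 had 46.4, 23.1 and 19.7 CPM in mes-3 sperm, against 8.89, 2.53 and 12.9 CPM in mes-3 males, a log2 fold change of 2.05 ± 0.60 (adjusted p = 0.0249, edgeR). flh-3, the gene of a FLYWCH zinc-finger factor, had 9.49, 7.05 and 6.83 CPM in mes-3 sperm, against 1.13, 2.13 and 1.501 CPM in mes-3 males, and its log2 fold change was 2.49 ± 0.80 (adjusted p = 0.0377). cam-1 had a log2 fold change of 2.397 ± 0.80 (adjusted p = 0.0437). For these 3 genes, and for his-52, mes-3 sperm lay above mes-3 males without overlap (21.5% of all genes did). For mrp-4 and F52D2.6 the 2 groups overlapped. fbxc-50 was the 1 gene of the 26 that lay below without overlap, beside 32.8% of all genes.

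Abundant somatic RNA accompanied this difference: 6 of 7 intestine genes and all 8 tested muscle genes were higher in mes-3 sperm than in mes-3 male germlines, with median log2 fold changes of 5.77 and 6.36, and its part in the 5 calls was not tested. alg-2 (log2 fold change 0.56 ± 0.32, adjusted p = 0.222), fbxc-50 (-0.54 ± 0.42, adjusted p = 0.375) and F54D5.5 (-0.63 ± 0.60, adjusted p = 0.465) did not pass the test in this comparison. Of the 5 calls, only cam-1 was kept without mes-3 sperm replicate 1, only F52D2.6 without mes-3 male replicate 1, only mrp-4 without mes-3 male replicate 2 and only pqn-65 without mes-3 male replicate 3. Without mes-3 male replicate 2, C39D10.7 and eat-17 were called beside mrp-4 (neither the call of C39D10.7 nor that of eat-17 was made with all libraries).

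All 82 genes were measured in the germlines of offspring, with more than 3 counts in each of the 4 libraries. Mean levels were over 15 RPKM for 69 of them in M+P- and 64 in M+P+ offspring. The highest group mean of all 9 groups fell in M+P- offspring for 44 genes, in N2 oogenic germlines for 18, in M+P+ offspring for 11 and in fem-2 oogenic germlines for 9. This tally is a description, since the oogenic and control male means include the libraries that chose the genes. The genes summed to 6929 and 5505 CPM in M+P- offspring, against 5392 and 4722 CPM in M+P+ offspring.

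Offspring whose fathers had lacked MES-3 were compared with those whose fathers had it to ask whether the father's history of H3K27me3 was visible in these transcripts. No gene of the 82 passed an adjusted p of 0.05 in edgeR or in DESeq2. Over all 11962 genes tested, edgeR called 0% and DESeq2 0.986% (101 genes higher and 17 lower). At an unadjusted p under 0.05 edgeR had 12 of the 82 and 1244 of all genes. The log2 fold change was positive for 58 of the 82 genes and for 49.6% of all genes. The median of the 82 was 0.27, against -0.0027 over all genes. X-linked genes of the group had a median of 0.41 (24 of 29 positive), where all tested X-linked genes had 0.46 (68.4% positive). Autosomal genes of the group had 0.18 (34 of 53 positive), where all tested autosomal genes had -0.023 (47.3% positive). How the X-linked oogenic genes stood to all X-linked genes depended on the setting: their medians were 0.47 and -0.0058 with no count filter, 0.17 and -0.029 without M+P- replicate 1, and 0.21 and 0.41 without M+P+ replicate 2. Groups did not overlap for 31 genes higher and 7 lower in M+P- offspring, beside 42.2% of all genes tested in either direction (2752 above and 2301 below).

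Several well-known members lay higher in M+P- offspring without passing the test. unc-84, which encodes a SUN-domain protein of the nuclear envelope, had 178 and 116 CPM in M+P- offspring, against 105 and 54.3 CPM in M+P+ offspring. Its log2 fold change was 0.83 ± 0.28 with an adjusted p of 0.364 (edgeR). ekl-5 had 99.8 and 69.2 CPM, against 53.6 and 15.5 CPM in M+P+ offspring (1.23 ± 0.44, adjusted p = 0.374). Both genes, named after their values were seen, are X-linked. meg-3 had 106 and 105 CPM in M+P- offspring, against 78.2 and 43.4 CPM in M+P+ offspring (0.75 ± 0.26, adjusted p = 0.369). meg-1 had 276 and 234.8 CPM, against 212 and 153 CPM in M+P+ offspring (0.44 ± 0.17, adjusted p = 0.416). The autosomal gene cdc-25.3, of the family of phosphatases that drive entry into cell division, had 47.8 and 39.5 CPM, against 24.6 and 19.8 CPM in M+P+ offspring (0.93 ± 0.32, adjusted p = 0.366).

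Other abundant members lay close together in the 2 kinds of offspring. mrp-4 had 649 and 594 CPM in M+P- offspring, against 657 and 579 CPM in M+P+ offspring. cht-3 had 130 and 128 CPM, against 135 and 130 CPM in M+P+ offspring. alg-2 had 172 and 161 CPM, against 177 and 119.5 CPM in M+P+ offspring, and fbxc-50 had 54.7 and 61.7 CPM, against 51.0 and 46.2 CPM in M+P+ offspring. For mrp-4 and alg-2 the groups overlapped, and for cht-3 the higher M+P- library, at 129.80 CPM, lay just under the lower M+P+ library, at 129.86 CPM.

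**Figure D3:**
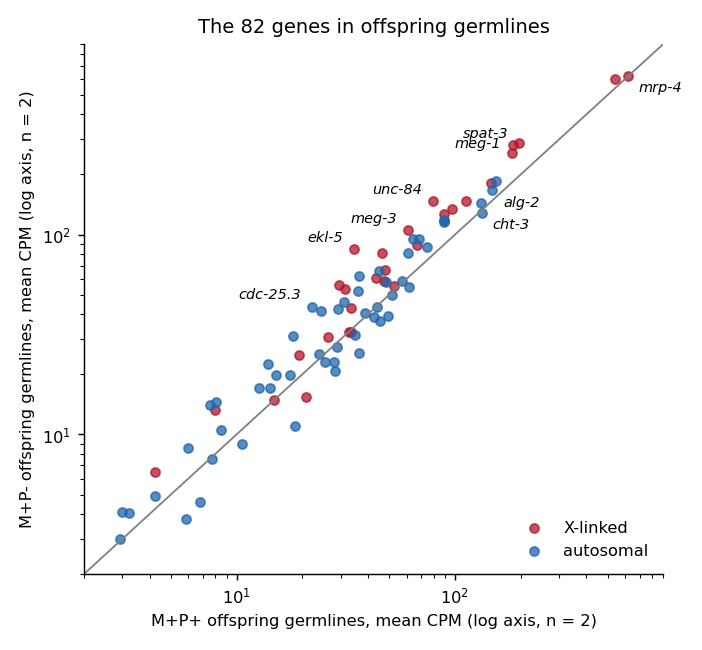
Mean level of each of the 82 genes (CPM, log axes) in M+P- offspring germlines against M+P+ offspring germlines, n = 2 each, X-linked genes in red and autosomal genes in blue. The line marks equal levels. By these unscaled means 26 of 29 X-linked genes and 35 of 53 autosomal genes lie above it, and none differed by the test. With scaling by total counts, the log2 fold change was positive for 70.5% of all X-linked and 51.6% of all autosomal genes tested.

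Single libraries carried much of the offspring pattern. M+P- replicate 1 had the highest CPM of the 4 libraries for 55 of the 82 genes and for 24 of the 29 that are X-linked, and M+P+ replicate 2 the lowest for 44 and 23. The X chromosome took 4.39% and 2.67% of counts in M+P- offspring, against 2.54% and 1.68% in M+P+ offspring. M+P- replicate 1 also held more somatic RNA: intestine genes summed to 103 and 11.6 CPM in M+P- offspring, against 14.8 and 25.7 CPM in M+P+ offspring, yolk genes to 720 and 201 CPM, against 117 and 82.9 CPM, and muscle genes to 390 and 186 CPM, against 166 and 154 CPM. The intestine regulator elt-2 was at 0.446 to 3.30 CPM in M+P- and 0.444 to 2.08 CPM in M+P+ offspring. The part of these RNAs in the result was not tested. Without M+P- replicate 1 the median log2 fold change of the 82 genes was 0.13, against 0.27 with all libraries.

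Among the fits that left out 1 library, calls appeared only without M+P- replicate 2 or without M+P+ replicate 1. Without M+P- replicate 2 there were 5 calls (unc-84, ent-2, pqn-65, spat-3 and ekl-5), where 440 of all 14081 genes tested were higher and 143 lower. Without M+P+ replicate 1 there were 9 (these 5 with meg-1, meg-3, inx-3 and F52D2.6), where 497 of 13869 genes were higher and 42 lower. All of these calls among the 82 genes were X-linked and higher in M+P- offspring, and in each such fit 1 library stood alone for its group and was assumed to vary like the other group. ent-2 and inx-3, also named after their values were seen, encode a nucleoside transporter and an innexin of gap junctions. Of the 9 genes, 6 form the 3 neighbouring pairs given above. The lists of eggshell and of maternal RNA genes had no call by edgeR or DESeq2, with medians of -0.025 and -0.056.

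Lastly, M+P+ offspring (n = 2) were compared with fem-2 oogenic replicates 1 and 2 (n = 2), leaving out fem-2 replicate 3 because it took part in choosing the genes, to see whether the offspring, which lack zygotic mes-3, kept the oogenic transcripts of worms with the gene. Temperature, mes-3 genotype and library-name tag all differ between these groups and cannot be told apart. Of 82 genes tested, 1 was higher and 12 were lower in M+P+ offspring (edgeR). Of all 10427 genes, 29.8% were higher and 15.4% lower (45.2% in all). DESeq2 called 36.2% of all genes and 11 of the 82, all 11 of them lower. Without overlap, 23 of the genes lay above and 21 below fem-2 germlines, beside 59.8% and 15.6% of all genes. The median log2 fold change was -0.21, against 0.12 over all genes. X-linked members had a median of -0.21, where all X-linked genes tested had 0.79. The split depends on scaling: with total counts in place of TMM factors the median of all genes was 0.43, the median of the 82 genes was 0.10, and 10 of them were higher and 6 lower (all genes 4292 higher and 647 lower, against 3104 and 1609 with TMM factors).

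cht-3 showed this with the smallest adjusted p. It had 135 and 130 CPM in M+P+ offspring, against 224 and 199 CPM in fem-2 oogenic replicates 1 and 2, a log2 fold change of -0.97 ± 0.10 (adjusted p = 0.00121). mrp-4 had 657 and 579 CPM, against 779 and 811 CPM in fem-2 germlines (-0.66 ± 0.083, adjusted p = 0.00229). R09F10.8 had 43.3 and 43.6 CPM, against 64.9 and 71.3 CPM in fem-2 germlines (-0.94 ± 0.14, adjusted p = 0.00342). meg-4 fell by 0.84 ± 0.17 on the log2 scale (adjusted p = 0.0066) and meg-3 by 0.77 ± 0.25 (adjusted p = 0.0408), while meg-1 did not pass the test, at 212 and 153 CPM in M+P+ offspring, against 154 and 162 CPM in fem-2 germlines.

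The largest differences were in genes that carry only a sequence name. Y75D11A.3 had 5.63 and 5.05 RPKM in M+P+ offspring, against 16.2 and 16.9 RPKM in fem-2 germlines, F43G6.7 had 3.66 and 12.2 RPKM, against 23.2 and 22.7 RPKM, and F54D10.7 had 12.4 and 5.53 RPKM, against 21.97 and 23.1 RPKM. Y46H3C.5 and F53F8.3 were lower as well (log2 fold change -1.41 ± 0.46 and -0.94 ± 0.32), as were fbxc-50 and, outside the rule for naming genes, C01G6.3 (-0.53 ± 0.16 and -0.55 ± 0.13). F02E8.4 was the gene that was higher, by edgeR and not by DESeq2. It had 153 and 140 CPM in M+P+ offspring, against 88.1 and 98.2 CPM in fem-2 germlines (0.36 ± 0.10, adjusted p = 0.0268, edgeR). In N2 oogenic replicate 3, which took no part in this test, cht-3 stood at 205 CPM and mrp-4 at 808 CPM, above both M+P+ libraries, while F43G6.7 stood at 9.68 RPKM, between the M+P+ libraries.

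**Figure D4:**
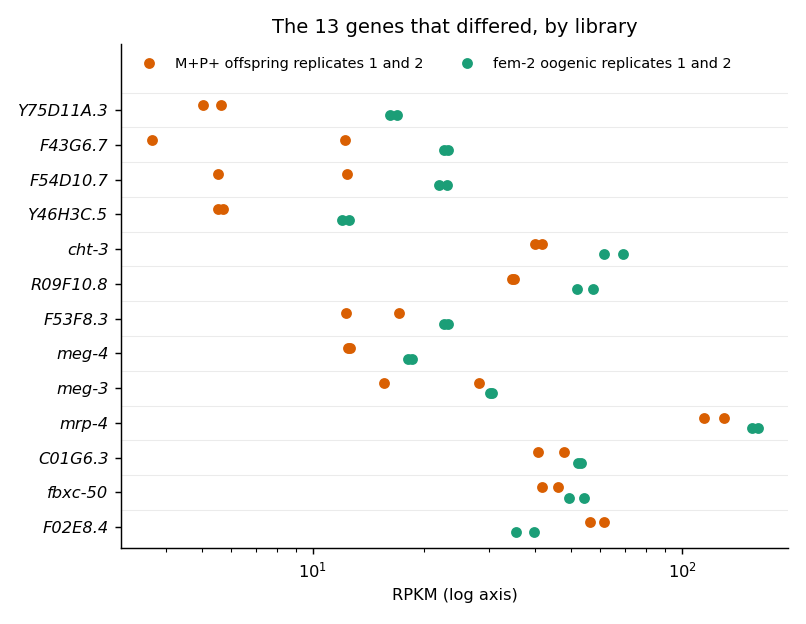
RPKM (log axis) of the 13 genes that differed between M+P+ offspring and fem-2 oogenic germlines, by library, ordered by fold change from the lowest at the top. In 12 rows both M+P+ libraries lie to the left of both fem-2 libraries, and in the row of F02E8.4 they lie to the right.

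In the wider oogenic lists, with TMM factors, all 14 eggshell and egg activation genes and all 14 maternal RNA regulators were lower in M+P+ offspring, with median log2 fold changes of -0.79 and -0.70, and rme-2 fell by 0.76 and par-6 by 0.47 on the log2 scale. Yolk genes were lower for 6 of 6. In M+P+ offspring all 3 sperm genes tested were higher by both tools, with a median log2 fold change of 7.23, and the sum of the sperm list was 17.6 CPM in each M+P+ library, against 0.437 and 0.540 CPM in fem-2 germlines. Also higher were 4 of 6 hypodermis, 3 of 4 neuron and 3 of 6 gonadal sheath genes and the distal tip gene lag-2, and the part of other cells in the levels of the oogenic genes was not tested.

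How many genes counted as oogenic-restricted depended on the thresholds. With an oogenic minimum of 10 RPKM there were 151 genes and with 25 RPKM 35. With a male maximum of 0.5 RPKM there were 63 and with 2 RPKM 107. Taking the oogenic level from the 3 libraries not used in the choice gave 78 genes, of which 70 were among the 82.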

How the data were processed

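RNA was purified from pools of dissected distal gonad arms or from released sperm, depleted of ribosomal RNA and sequenced as single-end reads, with 2 to 4 biological replicates per genotype. The authors aligned reads with TopHat2 to the WS220 transcriptome and deposited HTSeq counts per gene for each library. RPKM values were deposited by the authors as group means, from counts, the longest exonic transcript length and the total counts. The tables of the authors' own DESeq2 comparisons (fold changes and p-values) were not used. Summary lines of the counter (reads with no feature took 3.55% to 18.8%) stayed out of library totals. The RPKM table was used to choose the genes. RPKM per library was computed here from counts and a length per gene worked back from that table, its oogenic column first. Symbols and chromosomes came from the WBcel235 annotation, which matched all 82 genes; the intestine list gene opt-2 was not matched. The genes, the gene lists and the comparisons were chosen with earlier results of these data known.

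Differences were tested with edgeR 4.0.16 in R 4.3.3 (quasi-likelihood test, TMM factors, filterByExpr) on counts of the compared groups, with Benjamini-Hochberg adjustment over all genes tested and a threshold of 0.05. A call means a gene past that threshold. Alternatives were DESeq2 1.42.0, RLE factors, total counts, the data without a filter on counts, a filter at 10 counts throughout 1 group, the replicate number as a block, and each library left out. Floors are 3 counts per library, and floors and intervals cover counting error only. The scripts were tested on simulated data. Named genes were the 10 highest in the deposited oogenic column, up to 10 calls per comparison and direction by fold change, the 5 highest in each kind of sperm and in mes-3 male germlines, those nearest each threshold, list genes, and up to 15 genes with a well-known product. p-values measure the spread between these samples.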

Additional observations from a re-analysis of the deposited data

Results flagged for a closer look

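In him-8 male germlines 1 of the 4 libraries, replicate 2, lay far from the other 3 for several sums and genes, a pattern that chance gives in about 1 of 20 groups of this size for a single value. It had 523 CPM of the intestine genes, 2952 CPM of the muscle genes and 317 CPM of the hypodermis genes. Among the oogenic genes it had the highest value for spat-3, at 4.87 CPM, and for pqn-65, at 7.57 CPM. These values share a library and are not independent, and this library took part in choosing the genes.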

How the results depend on the processing

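In mes-3 male against oogenic germlines there were 80 to 82 calls over the alternatives, all of them lower in mes-3 males. In M+P- against M+P+ offspring, 0 calls became 9 with the replicate block (of all 11962 genes, 452 were then higher and 91 lower), and 0 to 9 when each library was left out. In mes-3 against him-8 sperm, 1 call became 2 with DESeq2, 2 with total counts, 2 with no count filter and 0 with the replicate block, and 0 to 1 when each library was left out. In M+P+ offspring against fem-2 oogenic germlines, 13 calls became 2 with no count filter and 20 with the replicate block, and 7 to 51 when each library was left out (45 without M+P+ replicate 1, where 4089 of 11138 genes in all were higher and 2775 lower; 51 without M+P+ replicate 2, where 3876 of 10808 were higher and 2776 lower; and 7 without either fem-2 library). In mes-3 sperm against mes-3 male germlines, 5 calls became 2 with the replicate block, and 1 to 4 when each library was left out. The choice of genes gave 151 with an oogenic minimum of 10 RPKM and 35 with 25 RPKM. The cause of these changes was not tested. Of the values of single named genes under the alternatives, 242 kept their side of the threshold, 58 no longer passed it and 0 reversed.

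Replicate numbers are not stated to pair samples. Deviations of same-numbered libraries from their group means correlated at most at 0.088, so the replicate block was not taken as pairing. A library left alone in its group was assumed to vary like the other group. In sperm only 11 of the 82 genes had enough counts to be tested by edgeR with its filter.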
